A study of Mus musculus with 39 samples.

Results

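The genes described here mark the fibroblasts and the perineurial cells of mouse peripheral nerve. They were chosen by name and matched by symbol to the Ensembl identifiers of the count files, which gave 10 members of 55573 genes counted. Pdgfra, Dcn and Lum mark fibroblasts in general, Dpt and Pi16 mark the fibroblasts of the epineurium, Sox9, Osr2 and Wif1 mark those of the endoneurium, and Cldn1 and Ntng1 mark the perineurial cells. All 10 passed the filter on low counts.

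The study asked how leptin receptor signaling in Schwann cells shapes the repair of a crushed nerve. Sciatic nerves of C57BL/6 mice were crushed on 1 side, and the distal endoneurium of the crushed (injured) nerve and of the contralateral (healthy) nerve was sequenced 2 or 4 weeks post crush (wpc). Lepr-ctrl mice were Lepr fl/fl without Cre, and Lepr-cKO mice were Lepr fl/fl::Dhh-Cre, so every animal carried the floxed allele. Dhh-Cre recombines in Schwann cells and their precursors, and the recombined allele still yields a truncated transcript. At 2 wpc there were 5 healthy and 5 injured Lepr-ctrl nerves and 6 healthy and 5 injured Lepr-cKO nerves. At 4 wpc the numbers were 5 and 4 for Lepr-ctrl and 5 and 4 for Lepr-cKO. The 39 libraries came from 22 mice of both sexes aged 2 to 4 months, of which 17 gave both nerves, and the mice sampled at 2 and at 4 wpc were different animals. The perineurium was stripped off before RNA was extracted. Mice are named here as in the labels, where SLRKO2wpc stands before the number of every mouse sampled at 2 wpc and WT or KO before that of the others.

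A peripheral nerve is wrapped in 3 layers of connective tissue. The epineurium is the outer sheath, which carries vessels and fat. The perineurium is a sleeve of flattened cells joined by tight junctions that seals each fascicle, and the endoneurium is the space inside it, where fibroblasts and macrophages lie between Schwann cells and axons. After a crush the axons beyond the lesion degenerate, Schwann cells shed their myelin and fibroblasts and perineurial cells take part in rebuilding the matrix and the fascicle.

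Libraries held 10905806 to 45016322 counts (median 27752451), so that 1 count stood at well under 1 CPM in each. CPM values are per-million counts of a library size scaled by TMM factors, fold changes are log2 values fitted by edgeR with a standard error (SE), and a gene was called when its Benjamini-Hochberg adjusted p over the 18442 genes tested was under 0.05 and its absolute log2 fold change was above 1. The main fit treated the libraries as independent, and its p-values measure the spread between libraries within groups. Both nerves of a mouse were paired only in an alternative fit with the animal as a block. That fit also left out the 5 mice with 1 nerve, so its values differ from the main ones by fewer libraries as well as by pairing. Lepr counts include the truncated transcript. They were 20.8 to 71.5 CPM in injured Lepr-ctrl nerves and 24.0 to 121 CPM in injured Lepr-cKO nerves. In all healthy nerves they were 5.79 to 14.7 CPM. The injured ranges overlapped, so these counts do not check the genotype labels. The paper reports reduced Lepr mRNA by qPCR in injured Lepr-cKO endoneurium at the earlier time. It describes its Lepr qPCR of wild-type nerves as specific to an isoform, whereas the counts here are summed per gene. Mean Lepr CPM at 2 wpc was 53.2 in injured Lepr-ctrl and 69.7 in injured Lepr-cKO nerves (SD 17.7 and 33.0, n = 5 each). No such reduction was seen in these counts at that time, and the reason was not tested. At 4 wpc the means were 44.5 and 30.5 CPM (SD 21.1 and 5.23, n = 4 each). Schwann cell genes summed to between 60129 and 82248 CPM in the healthy and between 9608 and 60059 CPM in the injured libraries, and macrophage genes to between 92.9 and 315 CPM and between 771 and 3755 CPM. Skeletal muscle genes summed to 36930 CPM in the injured nerve of Lepr-cKO mouse SLRKO2wpc126 at 2 wpc and to at most 27.7 CPM in any other library. In bulk tissue fewer cells of a type and less RNA per cell cannot be told apart.

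The first comparison asked which of the markers differed between the injured and the healthy nerve. In Lepr-ctrl mice at 2 wpc, Pi16, Wif1, Cldn1 and Ntng1 rose and Pdgfra and Dcn fell. Over all genes tested, 19.8% were called higher and 14.3% lower in that comparison. In Lepr-cKO mice at 2 wpc the same 4 genes rose and Pdgfra fell, against 20.9% of all genes called higher and 13.4% called lower. At 4 wpc in Lepr-ctrl mice 6 genes rose (Dpt, Pi16, Sox9, Osr2, Wif1 and Cldn1) and Pdgfra fell, with 20.1% and 15.9% of all genes. At 4 wpc in Lepr-cKO mice those 6 genes rose and none fell, with 16.8% and 10.8% of all genes. The median log2 fold change of the 10 genes was 0.26, 0.91, 1.52 and 1.29 in these 4 comparisons, and that of all genes tested was 0.08, 0.10, 0.02 and 0.06.

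**Figure D1:**
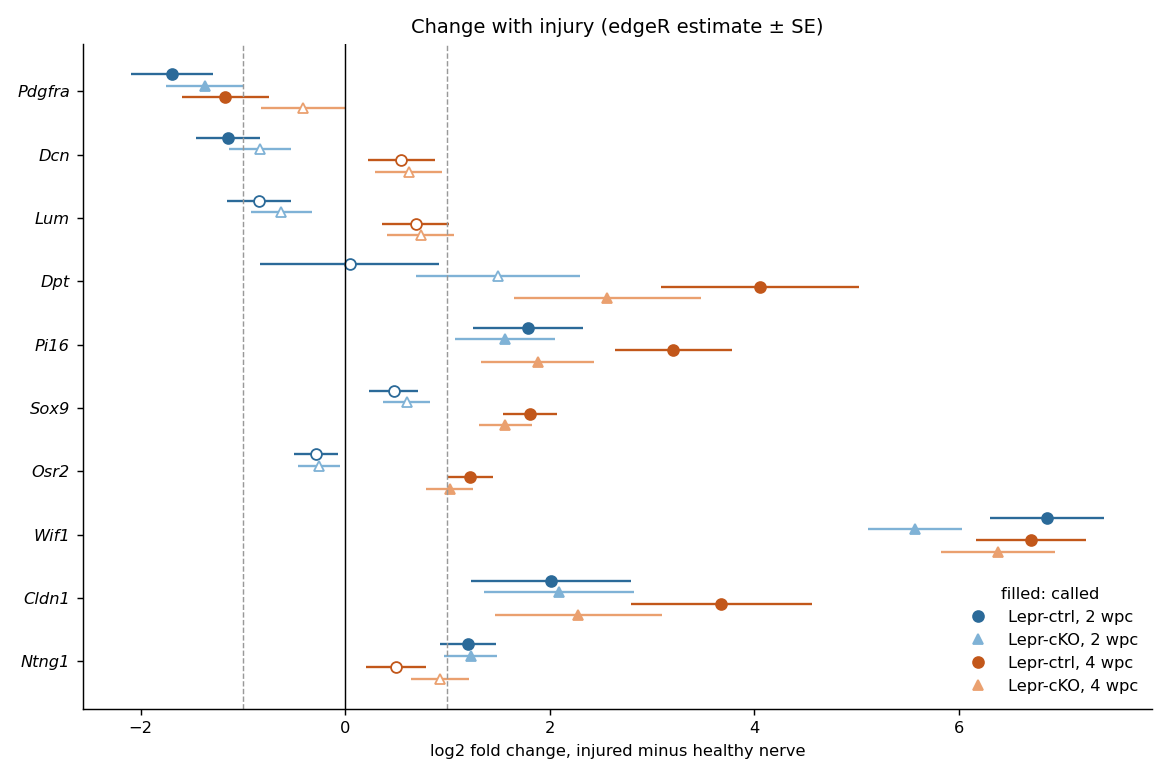
Fitted log2 fold change of injured minus healthy nerves (horizontal axis) with its SE for the 10 marker genes, for each genotype and time. Filled points were called. Wif1 lies between 5.57 and 6.86 in the 4 comparisons, and Pdgfra lies below 0 in each.

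Wif1 encodes WNT inhibitory factor 1, a secreted protein that binds Wnt ligands and keeps them from their receptors. It had the largest log2 fold change of the 10 genes in each of the 4 comparisons. Wif1 in Lepr-ctrl mice at 2 wpc stood at 0.0445, 0.0620, 0.0909, 0.0909 and 0.118 CPM in the healthy nerves and at 7.57, 7.91, 8.44, 11.7 and 15.8 CPM in the injured nerves. At 4 wpc the Lepr-ctrl values were 0, 0.0895, 0.144, 0.259 and 0.323 CPM (healthy) and 11, 14.6, 23.3 and 23.8 CPM (injured). Every injured library lay above every healthy library.

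Healthy Lepr-cKO nerves at 2 wpc held Wif1 between 0 and 0.641 (median 0.106) CPM, and the 5 injured nerves held 6.29, 8.30, 9.41, 11.8 and 11.9 CPM. At 4 wpc Wif1 in Lepr-cKO mice was 0.0390, 0.0732, 0.0807, 0.129 and 0.174 CPM in the healthy and 5.07, 7.16, 10.5 and 13.7 CPM in the injured nerves. The groups again did not overlap. In counts, the healthy groups held 14 (Lepr-ctrl, 2 wpc), 25 (Lepr-ctrl, 4 wpc), 41 (Lepr-cKO, 2 wpc) and 15 (Lepr-cKO, 4 wpc) Wif1 counts in all, and 20 of the 41 came from mouse SLRKO2wpc126. The injured groups held 1351, 1010, 1439 and 726 counts in the same order.

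Scaled by library size, the injured groups held 117 (95% interval 69.6 to 215), 106 (71.1 to 164), 49.1 (36.0 to 68.7) and 84.8 (51.1 to 152) times as many Wif1 counts as the healthy groups, with intervals that cover counting error only. The fitted log2 fold changes were 6.86 ± 0.56 (SE; edgeR adjusted p = 1.1e-12), 6.71 ± 0.54 (SE; edgeR adjusted p = 1.4e-12), 5.57 ± 0.46 (SE; edgeR adjusted p = 1.8e-12) and 6.39 ± 0.56 (SE; edgeR adjusted p = 2.2e-11). At 0 to 20 counts in a healthy library these fits depend on few reads. Without the healthy nerve of mouse SLRKO2wpc126 the value in Lepr-cKO mice at 2 wpc was 6.34. Although Wif1 is named as a marker of endoneurial fibroblasts, no healthy endoneurium exceeded 0.641 CPM.

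Wif1 lies on chromosome 10 (GRCm38, chr10:121033960-121100650, plus strand). Its RefSeq promoter window (GRCm38.p6, chr10:121033754-121034053, plus strand, 250 bases before to 50 bases after the start) is shown because this gene had the largest change, with capitals marking the motif matches found. The 6 motifs searched on both strands were TATAAA (the TATA box), CCAAT (the box of that name), TGANTCA (named for AP-1), CTTTGA (the core of TCF and LEF motifs), GGAATG (named for TEAD factors) and ACAATG (named for SOX factors).
Wif1: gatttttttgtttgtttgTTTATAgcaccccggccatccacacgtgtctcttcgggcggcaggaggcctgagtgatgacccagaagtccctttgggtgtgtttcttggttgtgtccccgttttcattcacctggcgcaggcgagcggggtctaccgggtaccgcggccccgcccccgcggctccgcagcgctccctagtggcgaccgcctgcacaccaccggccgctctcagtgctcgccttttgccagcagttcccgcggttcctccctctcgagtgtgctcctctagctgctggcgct
The capitals mark TTTATA, the reverse strand of TATAAA, 232 bases before the start. Of 32851 promoter windows of this length, 13.6% held TATAAA on either strand, and the match is a description of the sequence.

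Sox9, a transcription factor best known from cartilage, and Osr2, a zinc finger transcription factor, are the other endoneurial markers. Both rose at 4 wpc and neither was called at 2 wpc. Sox9 in Lepr-ctrl mice at 4 wpc was 9.08, 9.96, 12.6, 15.8 and 15.9 CPM in the healthy and 35.7, 36.5, 49.7 and 55.0 CPM in the injured nerves. The Lepr-cKO values at 4 wpc were 7.30, 9.52, 14.7, 15.3 and 15.6 CPM and 28.8, 30.5, 35.1 and 53.6 CPM. Neither pair of groups overlapped, and the log2 fold changes were 1.81 ± 0.26 (SE; edgeR adjusted p = 3.1e-07) and 1.57 ± 0.26 (SE; edgeR adjusted p = 5.3e-06). At 2 wpc the ranges of Sox9 overlapped, from 15 to 24.4 CPM in healthy against 21.4 to 36.2 CPM in injured Lepr-ctrl nerves and from 10.9 to 20.9 CPM against 13.1 to 31.7 CPM in Lepr-cKO nerves. The log2 fold changes at 2 wpc were 0.47 ± 0.24 (SE; edgeR adjusted p = 0.0867) and 0.60 ± 0.23 (SE; edgeR adjusted p = 0.023), both under the threshold of 1.

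Osr2 in Lepr-ctrl mice at 4 wpc was 18.7, 19.6, 26.5, 29.6 and 30.7 CPM in the healthy and 50.6, 55.1, 61.9 and 66.3 CPM in the injured nerves. In Lepr-cKO mice it was 14.4, 15.8, 18.6, 19.9 and 22.4 CPM and 23.0, 29.8, 37.3 and 57.9 CPM. The groups did not overlap in either genotype, with log2 fold changes of 1.22 ± 0.23 (SE; edgeR adjusted p = 1.8e-05) and 1.02 ± 0.23 (SE; edgeR adjusted p = 0.00029). The Lepr-cKO value lay close to the threshold. It was 0.91 with the animal as a block, 0.94 without healthy mouse KO-176, 0.97 without healthy mouse KO-179 and 0.71 without injured mouse KO-177, each under the fold threshold. The block fit leaves out mouse KO-179 too. At 2 wpc the injured nerves held 20.4 to 32.0 CPM (Lepr-ctrl) and 20.3 to 30.8 CPM (Lepr-cKO), inside or below the healthy ranges of 24.2 to 46.6 CPM and 22.9 to 44.8 CPM, and the log2 fold changes were -0.28 ± 0.21 and -0.26 ± 0.21 (SE; edgeR adjusted p = 0.246 and 0.272).

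**Figure D2:**
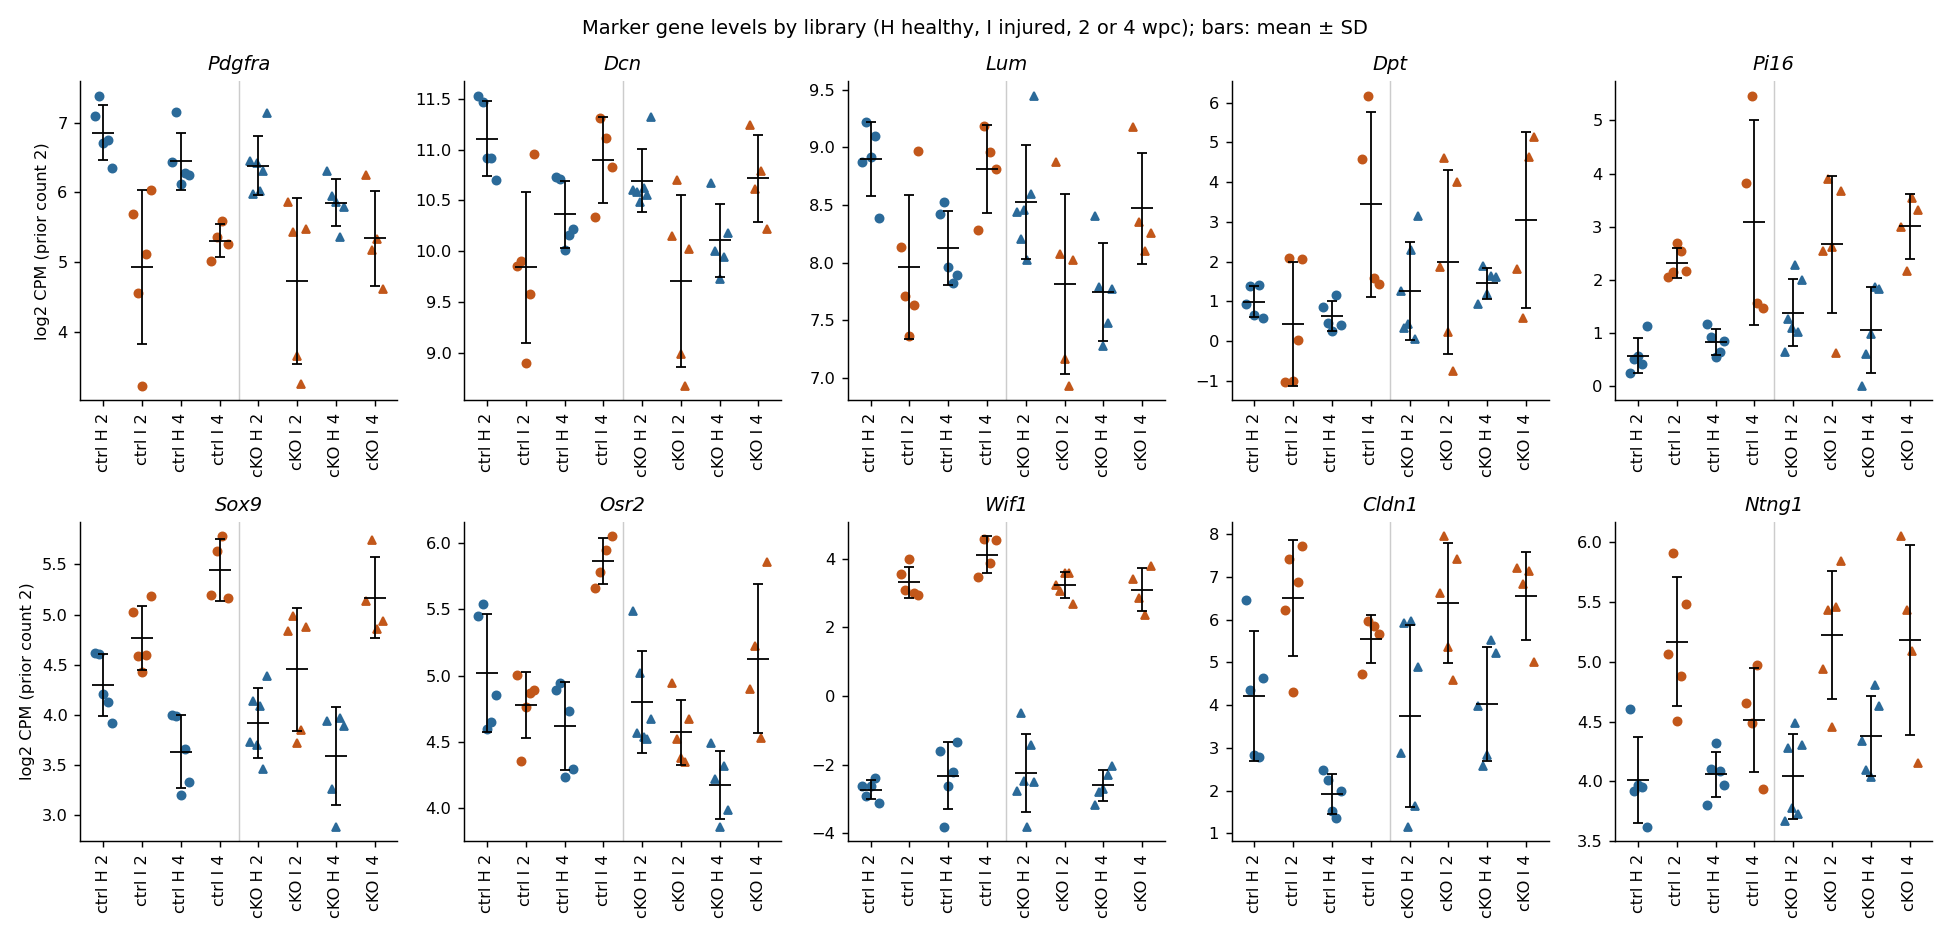
Level of each of the 10 marker genes in every library (vertical axis, log2 CPM) in the 8 groups of genotype, nerve and time, with the mean and SD of each group. The injured libraries of Wif1 lie apart from the healthy ones in all 4 pairs, while those of Cldn1 and Dpt spread widely within groups.

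Of 6 further endoneurial fibroblast genes, 1 was called higher and 1 lower in Lepr-ctrl mice at 2 wpc. Cxcl14, a secreted chemokine, rose by 4.66 ± 0.45, and Abca9, an ABC transporter, fell (-1.74 ± 0.25). Lepr-cKO mice gave the same counts at that time. At 4 wpc 1 gene was called higher and 3 lower in Lepr-ctrl mice, where Abca9, Col26a1 and Matn2 fell (-1.12, -1.03 and -1.18), and 2 higher and none lower in Lepr-cKO mice (Cxcl14 and Plxdc1, 4.02 and 1.04). The median log2 fold change of the 6 genes was -0.19, -0.19, -0.21 and 0.01 (Lepr-ctrl and Lepr-cKO at 2 wpc, then at 4 wpc).

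Among 11 other secreted Wnt antagonists and Wnt target genes tested, 2 were called higher and 2 lower in Lepr-ctrl mice at 2 wpc. Frzb and Dkk3, both secreted, fell (-3.70 ± 0.26 and -2.84 ± 0.30, SE), and the level of Frzb was 382 ± 55.0 CPM (SD, n = 5) in the healthy and 29.3 ± 12 CPM (SD, n = 5) in the injured nerves. Dkk2, another secreted antagonist, and Lef1, a transcription factor and target of the pathway, rose by 4.32 ± 0.71 and 2.26 ± 0.36. Dkk2 had a mean log2 CPM of at most 1 or groups that overlapped, and its CPM values are not given. Axin2, a widely used target gene, was at 0.07 ± 0.20 and was not called. The counts were 3 higher and 2 lower in Lepr-cKO mice at 2 wpc and, at 4 wpc, 4 and 3 (Lepr-ctrl) and 2 and 2 (Lepr-cKO). The median changes were 0.19, 0.22, 0.48 and -0.07 in the order used above. Of 4 transcription factors related to Sox9 and Osr2 (Sox5, Sox6, Sox8 and Osr1), none was called in Lepr-ctrl mice at 2 wpc, Sox5 rose in Lepr-cKO mice at both times (1.3 and 1.43) and Osr1 rose at 4 wpc in both genotypes (1.92 and 1.28).

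Among the general fibroblast markers, Pdgfra encodes the alpha receptor for platelet-derived growth factor, and Dcn and Lum encode decorin and lumican, small leucine-rich proteoglycans that bind collagen fibrils. Pdgfra in Lepr-ctrl mice at 2 wpc was 81.6, 104, 107, 137 and 167 CPM in the healthy and 9.30, 23.4, 34.8, 51.7 and 65.2 CPM in the injured nerves. In Lepr-cKO mice at 2 wpc the healthy nerves lay between 63.0 and 140.2 (median 82.7) CPM and the injured nerves were at 9.49, 12.5, 43.2, 44.6 and 57.9 CPM. The groups did not overlap in either genotype. Pdgfra fell, with log2 fold changes of -1.69 ± 0.40 (SE; edgeR adjusted p = 0.00038) and -1.37 ± 0.38 (SE; edgeR adjusted p = 0.00221).

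At 4 wpc Pdgfra in Lepr-ctrl mice was 69.4, 75.8, 77.4, 86.4 and 142 CPM in the healthy and 32.5, 38.4, 41.0 and 48.2 CPM in the injured nerves, again without overlap. The Lepr-cKO values at 4 wpc were 41.0, 55.4, 57.9, 61.5 and 79.2 CPM and 24.4, 36.1, 40.3 and 76.3 CPM, which overlapped. Pdgfra was called lower in Lepr-ctrl mice, at -1.17 ± 0.42 (SE; edgeR adjusted p = 0.0164), and was not called in Lepr-cKO mice, at -0.41 ± 0.41 (SE; edgeR adjusted p = 0.412). The first call rested on healthy mouse WT-170, without which the change was -0.95 (edgeR adjusted p = 0.058). The Lepr-cKO value ran from -0.81 without injured mouse KO-169 (adjusted p = 0.123) to -0.23 without injured mouse KO-177 (adjusted p = 0.682). The difference between the genotypes in this response was 0.76 (95% interval -0.39 to 1.91) and was not called.

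Dcn was the most abundant of the 10 genes. Dcn in Lepr-ctrl mice at 2 wpc was 1662, 1932, 1937, 2834 and 2962 CPM in the healthy and 478, 766, 927, 956 and 1987 CPM in the injured nerves. In Lepr-cKO mice it lay between 1436 and 2554 (median 1544) CPM in the healthy nerves and at 408, 505, 1037, 1133 and 1661 CPM in the injured nerves. In both genotypes 4 of 5 injured libraries lay below every healthy one. Dcn fell in Lepr-ctrl mice, at -1.15 ± 0.31 (SE; edgeR adjusted p = 0.0019), and was at -0.84 ± 0.30 (SE; edgeR adjusted p = 0.0156) in Lepr-cKO mice, under the fold threshold. With the animal as a block the values were -0.93 and -1.03 (edgeR adjusted p = 0.0161 and 0.00441), which moved the first out of the calls and the second into them. The first was also -0.97 without injured mouse SLRKO2wpc144 alone, which the block fit leaves out too. The second was -1.12 without injured mouse SLRKO2wpc126.

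At 4 wpc the fitted changes of Dcn and of Lum were above 0. Dcn in Lepr-ctrl mice was 1029, 1139, 1187, 1670.3 and 1696 CPM in the healthy and 1292, 1824, 2215 and 2544 CPM in the injured nerves, and 3 of 4 injured libraries lay above all healthy ones. In Lepr-cKO mice the values were 847, 984, 1025, 1159.9 and 1634 CPM and 1189, 1560.3, 1774 and 2426 CPM, which overlapped. Neither change was called, at 0.55 ± 0.33 (SE; edgeR adjusted p = 0.142) and 0.62 ± 0.33 (SE; edgeR adjusted p = 0.107). Lum was less abundant. In Lepr-ctrl mice at 2 wpc the healthy nerves held 486 ± 99.4 CPM (SD, n = 5) of it and the injured nerves 271 ± 135.6 CPM (SD, n = 5). The corresponding means were 285 ± 65.6 CPM (SD, n = 5) and 460.2 ± 113 CPM (SD, n = 4) at 4 wpc. The log2 fold changes of Lum were -0.84 ± 0.31 (SE; edgeR adjusted p = 0.0187) and -0.62 ± 0.30 (SE; edgeR adjusted p = 0.0667) at 2 wpc and 0.69 ± 0.33 (SE; edgeR adjusted p = 0.0647) and 0.74 ± 0.33 (SE; edgeR adjusted p = 0.0543) at 4 wpc, none of them called. Without injured mouse SLRKO2wpc131 the change in Lepr-ctrl mice at 2 wpc was -1.17, past the threshold.

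Dcn and Lum are neighbours on chromosome 10 (GRCm38, chr10:97479609-97518143 and chr10:97565128-97572703, both on the plus strand), 46984 bases apart, and are followed by the proteoglycan genes Kera and Epyc. The log2 ratio of Dcn to Lum CPM in Lepr-ctrl mice at 2 wpc was 2.21 ± 0.32 (SD, n = 5) on the healthy and 1.88 ± 0.25 (SD, n = 5) on the injured side, and the means of the 8 groups lay between 1.88 and 2.36. Epyc, the neighbour that could be tested, rose by 2.00 ± 0.65 and 4.47 ± 0.76 in Lepr-ctrl mice at 2 and 4 wpc, and Kera, with 3 counts at most in a library, was not tested. The mean log2 CPM of Epyc was at most 1 or its groups at 2 wpc overlapped, and its CPM values are not given.

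Of 8 other small leucine-rich proteoglycans tested, 1 was called higher and 2 lower in Lepr-ctrl mice at 2 wpc. Ogn (osteoglycin) fell from 3005 ± 266 to 248 ± 132 CPM (SD, n = 5 each), a log2 fold change of -3.60 ± 0.31 (SE), and Podn (podocan) fell too (-2.09 ± 0.39). In Lepr-cKO mice at 2 wpc Ogn and Podn fell and none rose. At 4 wpc 2 were higher and 2 lower in Lepr-ctrl mice and 2 higher and 1 lower in Lepr-cKO mice, and Bgn (biglycan) was among the higher ones (2.35 and 1.61). Of 5 other genes of the PDGF family, Pdgfrb, the beta receptor, which pericytes also carry, fell in all 4 comparisons (-1.88 and -1.85 at 2 wpc, -2.0 and -1.52 at 4 wpc). The ligand Pdgfb rose in Lepr-ctrl mice at 4 wpc (1.29) and Pdgfd fell in Lepr-cKO mice at 4 wpc (-1.38). Of 6 pericyte and smooth muscle genes, 3, 1, 3 and 3 were called lower and none higher in the 4 comparisons (Lepr-ctrl and Lepr-cKO at 2 wpc, then at 4 wpc), and their part in the change of Pdgfrb was not tested.

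Further genes of fibroblasts in general were called higher or not called. Of 11 tested, 3 were called higher and none lower at 2 wpc in either genotype, and 7 (Lepr-ctrl) and 6 (Lepr-cKO) higher and none lower at 4 wpc. Cygb (cytoglobin) rose in each, by 2.05 and 1.56 at 2 wpc and 3.52 and 2.84 at 4 wpc. The transcription factors Twist1 and Prrx1 rose at 4 wpc in Lepr-ctrl mice (2.00 and 1.78) and in Lepr-cKO mice (1.87 and 1.22). The median of the 11 genes was 0.57, 0.83, 1.78 and 1.06 in the same order.

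Dpt encodes dermatopontin, a small matrix protein that binds decorin, and Pi16 encodes peptidase inhibitor 16, a secreted protein used to mark adventitial fibroblasts. Both were scarce in the healthy endoneurium. Pi16 in Lepr-ctrl mice at 2 wpc was 1.12, 1.27, 1.36, 1.41 and 2.13 CPM in the healthy and 4.11, 4.35, 4.41, 5.79 and 6.40 CPM in the injured nerves. At 4 wpc it was 1.39, 1.49, 1.75, 1.83 and 2.19 CPM and 2.72, 2.90, 14.1 and 44.1 CPM. The groups did not overlap at either time, and at 4 wpc 2 of the 4 injured libraries lay far above the other two. Pi16 rose by 1.79 ± 0.54 (SE; edgeR adjusted p = 0.0044) and 3.21 ± 0.57 (SE; edgeR adjusted p = 1.1e-05), and the second value was 1.91 without injured mouse WT-171.

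In Lepr-cKO mice Pi16 lay between 1.49 and 4.76 (median 2.21) CPM in the healthy and at 1.47, 5.76, 6.06, 12.6 and 14.8 CPM in the injured nerves at 2 wpc. At 4 wpc Pi16 was at 0.936, 1.46, 1.90, 3.5 and 3.58 CPM and 4.43, 7.86, 9.90 and 11.6 CPM in those mice. Only the groups at 4 wpc did not overlap. The gene rose at both times, by 1.56 ± 0.49 (SE; edgeR adjusted p = 0.00587) and 1.89 ± 0.55 (SE; edgeR adjusted p = 0.00427).

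Dpt in Lepr-ctrl mice at 4 wpc was 1.12, 1.26, 1.29, 1.74 and 2.17 CPM in the healthy and 2.63, 2.95, 23.8 and 72.4 CPM in the injured nerves. In Lepr-cKO mice at 4 wpc it was 1.83, 2.22, 3.0, 3.02 and 3.62 CPM and 1.42, 3.41, 25.0 and 35.4 CPM. The groups did not overlap in Lepr-ctrl mice and overlapped in Lepr-cKO mice, and in each genotype 2 injured libraries stood above 20 CPM and 2 below 4 CPM. Dpt rose by 4.06 ± 0.97 (SE; edgeR adjusted p = 0.00047) and 2.56 ± 0.91 (SE; edgeR adjusted p = 0.0172). The first was 2.66 without injured mouse WT-171. The second was lost with the animal as a block (1.83, edgeR adjusted p = 0.173) and without injured mouse KO-177 (1.84, adjusted p = 0.104).

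At 2 wpc Dpt in Lepr-ctrl mice was 1.42, 1.5, 1.85, 2.54 and 2.57 CPM in the healthy and 0.419, 0.427, 0.952, 4.08 and 4.15 CPM in the injured nerves. Lepr-cKO mice at 2 wpc held Dpt between 0.962 and 8.84 (median 1.81) CPM in the healthy and at 0.518, 1.10, 3.57, 15.9 and 24.5 CPM in the injured nerves. The injured libraries of both genotypes lay on both sides of the healthy ones. The changes were 0.04 ± 0.88 (SE; edgeR adjusted p = 0.968) and 1.49 ± 0.80 (SE; edgeR adjusted p = 0.101), neither of them called. In Lepr-cKO mice the change passed the threshold without healthy mouse SLRKO2wpc138 (2.14) or without injured mouse SLRKO2wpc135 (1.79), and it was 0.73 (adjusted p = 0.443) without injured mouse SLRKO2wpc126.

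Dpt was highest in libraries that also held adipocyte transcripts. Adipoq, which encodes adiponectin and is made by fat cells, was 26.4 and 17.8 CPM in the injured Lepr-ctrl nerves of mice WT-171 and WT-170 at 4 wpc, where Dpt was 72.4 and 23.8 CPM. It was 0 in those of mice WT-173 and WT-178, where Dpt was 2.95 and 2.63 CPM. At 2 wpc the highest Dpt of the injured Lepr-cKO nerves (24.5 CPM) was in mouse SLRKO2wpc126, whose Adipoq was 109 CPM and which also held the muscle transcripts. Within groups the 2 genes deviated together, as given below, but the level of Dpt beside Adipoq differed between groups. Adipoq reached 11.5 CPM among healthy Lepr-cKO nerves at 4 wpc, where Dpt was at most 3.62 CPM. Among injured Lepr-ctrl nerves at 2 wpc Adipoq reached 17.9 CPM while Dpt was at most 4.15 CPM. Adipoq reached 1 CPM in 0 of 5 healthy Lepr-ctrl nerves at each time, in 2 of 5 and 2 of 4 injured Lepr-ctrl nerves at 2 and 4 wpc, in 3 of 6 and 4 of 5 healthy Lepr-cKO nerves and in 2 of 5 and 3 of 4 injured Lepr-cKO nerves. Adipoq was listed at 0 in every healthy Lepr-ctrl library at 4 wpc, and Lep, which encodes leptin, in every one at 2 wpc.

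In Lepr-ctrl mice 7 of 8 adipocyte genes rose at each time and Plin4 fell at 2 wpc, and in Lepr-cKO mice 1 of them (Fabp4) rose at each time. Their summed level was 40.6 to 98.6 CPM in healthy and 17.3 to 357 CPM in injured Lepr-ctrl nerves at 2 wpc, and 25.4 to 184 CPM and 87.5 to 449 CPM at 4 wpc. In Lepr-cKO mice it was 47.6 to 369 CPM and 19.3 to 2078 CPM at 2 wpc and 25.7 to 164 CPM and 48.1 to 452 CPM at 4 wpc.

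After the mean of its group was taken from each library, Dpt and Adipoq deviated together over the 39 libraries (Pearson r = 0.90, Spearman rho = 0.89, r = 0.88 without the 2 libraries farthest from the median), and r was 0.87 over the 21 healthy and 0.93 over the 18 injured libraries. For Pi16 and Adipoq r was 0.70, and for Dcn and Adipoq it was 0.39. These points share library, depth and, for 17 mice, the animal. When the 16 libraries with at least 1 CPM of Adipoq were left out, an alternative chosen after seeing the data, Dpt was 0.83 (edgeR adjusted p = 0.155) and Pi16 was 0.66 (adjusted p = 0.146) in Lepr-ctrl mice at 4 wpc and neither was called. In the same 23 libraries Dpt fell by 1.74 (adjusted p = 0.00388) and Pi16 rose by 1.86 in Lepr-ctrl mice at 2 wpc, and Pi16 rose by 1.01 (2 wpc) and 2.20 (4 wpc) in the Lepr-cKO mice, the last from 1 healthy and 1 injured library whose spread is assumed to be that of the other groups.

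**Figure D3:**
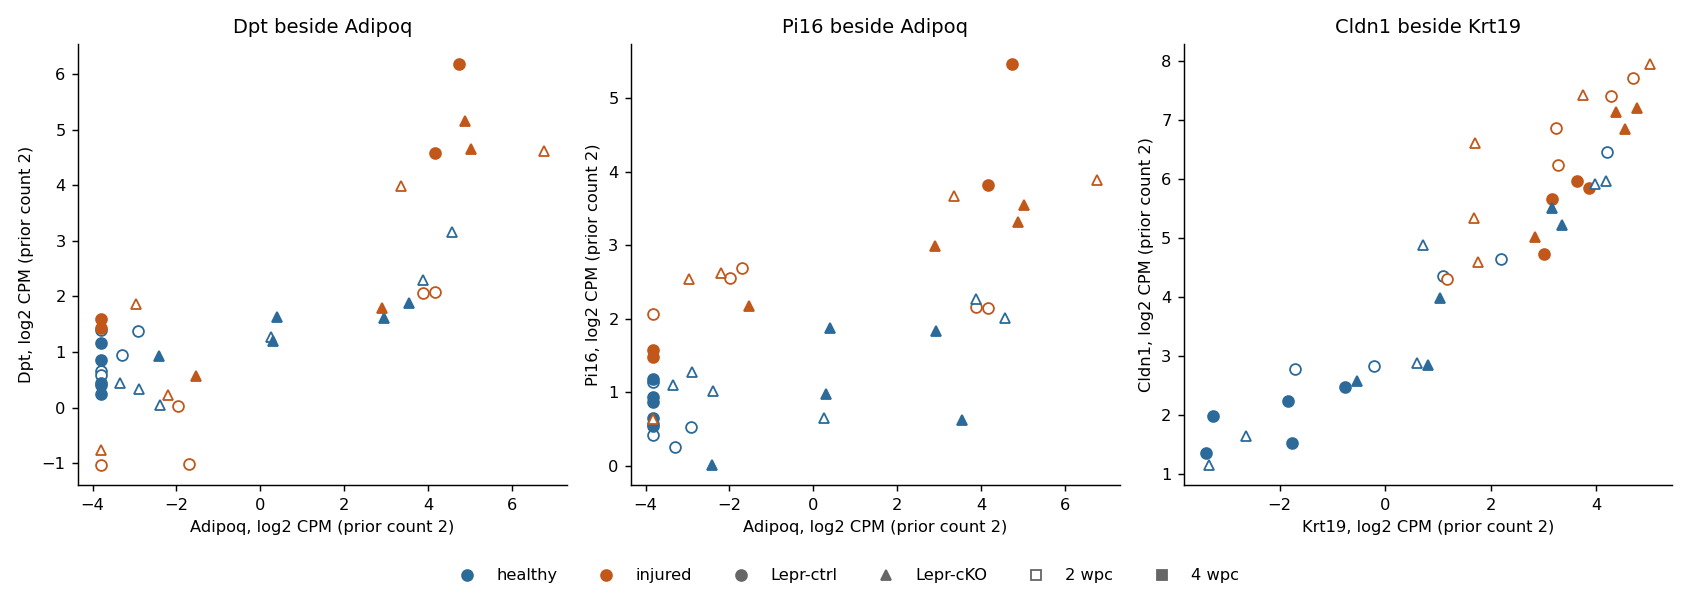
Level of Dpt and Pi16 against Adipoq and of Cldn1 against Krt19 in each of the 39 libraries (log2 CPM on both axes), with injured and healthy libraries of both genotypes marked. Libraries with more Adipoq had more Dpt (r = 0.90 for deviations from the group means) and those with more Krt19 had more Cldn1 (r = 0.92).

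The RefSeq promoter windows of Dpt (GRCm38.p6, chr1:164796413-164796712, plus strand) and Pi16 (chr17:29318632-29318931, plus strand) are shown because these genes deviated together (r = 0.73), with capitals marking matches to the motifs listed for Wif1.
Dpt: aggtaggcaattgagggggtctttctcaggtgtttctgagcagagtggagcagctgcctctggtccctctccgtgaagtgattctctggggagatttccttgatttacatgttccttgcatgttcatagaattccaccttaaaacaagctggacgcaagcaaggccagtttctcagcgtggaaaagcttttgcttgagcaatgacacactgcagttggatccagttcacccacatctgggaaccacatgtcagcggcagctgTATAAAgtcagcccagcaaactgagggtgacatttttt
Pi16: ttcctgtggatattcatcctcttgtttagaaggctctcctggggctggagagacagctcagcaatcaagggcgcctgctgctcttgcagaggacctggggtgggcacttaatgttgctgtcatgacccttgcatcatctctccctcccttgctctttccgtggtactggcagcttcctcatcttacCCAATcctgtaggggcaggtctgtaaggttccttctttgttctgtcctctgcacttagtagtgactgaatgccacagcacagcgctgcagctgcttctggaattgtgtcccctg
The match in Dpt is TATAAA, 12 bases past the annotated start, and that in Pi16 is CCAAT, 64 bases before it. CCAAT was present in 37.4% of the 32851 windows and TATAAA in 13.6%, so the windows share no motif of the 6 searched. Of the other shares, TGANTCA was in 7.81% of windows, CTTTGA in 16.0%, GGAATG in 14.7% and ACAATG in 12.6%. The RefSeq table held windows for 6 of the 10 genes. Among the remaining 3, Ntng1 held GGAATG 24 bases before the start and Pdgfra and Cldn1 held none of the 6 motifs.

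The other epineurial fibroblast genes did not move in 1 direction. Of 12 tested, 2 were called higher and 2 lower at 2 wpc in Lepr-ctrl nerves, against 3 and 2 for Lepr-cKO, while at 4 wpc the numbers were 4 and 4 for Lepr-ctrl and 2 and 3 for Lepr-cKO, with medians of 0.25, 0.37, 0.89 and 0.33. Pcolce2, an enhancer of procollagen processing, and Dpp4, a cell surface peptidase, rose by 4.04 ± 0.61 and 1.47 ± 0.37 in Lepr-ctrl mice at 2 wpc. Each of them had a mean log2 CPM of at most 1 or groups that overlapped, and their CPM values are not given. Mfap5, a microfibril protein, fell (-4.12 ± 0.32), from 815 ± 65.9 to 46.7 ± 24.3 CPM (SD, n = 5 each), and Tnxb (tenascin X) fell (-2.11 ± 0.25).

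Cldn1 encodes claudin 1, a strand protein of the tight junctions between perineurial cells, and Ntng1 encodes netrin G1, a membrane-anchored relative of the netrins. Both were present although the perineurium had been stripped off. Cldn1 in Lepr-ctrl mice at 2 wpc was 6.78, 7.04, 20.5, 24.9 and 88.1 CPM in the healthy and 19.7, 75.4, 117, 170.2 and 211 CPM in the injured nerves. At 4 wpc it was 2.48, 2.82, 3.88, 4.66 and 5.48 CPM and 26.6, 50.7, 57.5 and 62.4 CPM. Only the groups at 4 wpc did not overlap, and at 2 wpc the healthy nerve of mouse SLRKO2wpc120 (88.1 CPM) stood above 2 of the 5 injured ones. Cldn1 rose by 2.01 ± 0.78 (SE; edgeR adjusted p = 0.0242) and 3.68 ± 0.88 (SE; edgeR adjusted p = 0.00051). At 2 wpc the change was 3.02 without mouse SLRKO2wpc120 and was no longer called without healthy mouse SLRKO2wpc123, SLRKO2wpc130 or SLRKO2wpc131 or injured mouse SLRKO2wpc131 (1.71 to 1.92, adjusted p = 0.0502 to 0.0622).

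In Lepr-cKO mice at 2 wpc Cldn1 lay between 2.16 and 62.6 (median 18.4) CPM in the healthy and at 24.0, 40.7, 98.2, 172 and 248 CPM in the injured nerves. At 4 wpc Cldn1 was 5.89, 7.10, 15.8, 37.3 and 45.8 CPM and 32.4, 115, 140.4 and 147.5 CPM there. At each time 3 injured libraries lay above all healthy ones. Cldn1 rose by 2.09 ± 0.73 (SE; edgeR adjusted p = 0.013) and 2.28 ± 0.82 (SE; edgeR adjusted p = 0.0178). Without injured mouse SLRKO2wpc126, which held the muscle transcripts and the highest Cldn1 of any library, the change at 2 wpc was 1.63 (adjusted p = 0.0528).

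Of the further perineurial genes, only Krt19, Lypd2, Msln and Slc2a1 were set beside the spread of Cldn1 within groups. Deviations of Cldn1 from its group means followed those of Krt19, a keratin (r = 0.92, rho = 0.91, and 0.91 without the 2 libraries farthest from the median), Lypd2 (r = 0.92) and Msln, which encodes mesothelin (r = 0.85). They followed those of Slc2a1, the glucose transporter of the perineurial barrier, less closely over all 39 libraries (r = 0.16), with 0.71 over the 21 healthy and -0.36 over the 18 injured ones. Krt19 itself ranged from 0.0241 to 18.3 CPM in healthy nerves. In the 23 libraries with less than 1 CPM of Adipoq, Cldn1 was 1.22 and 1.28 at 2 wpc (edgeR adjusted p = 0.226 and 0.286) and 3.78 and 2.83 at 4 wpc, of which the Lepr-ctrl value at 4 wpc was called. The Lepr-cKO value at 4 wpc sets 1 injured against 1 healthy library.

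Ntng1 in Lepr-ctrl mice at 2 wpc was 12.2, 15.1, 15.4, 15.6 and 24.3 CPM in the healthy and 22.7, 29.4, 33.4, 44.6 and 60.0 CPM in the injured nerves. In Lepr-cKO mice at 2 wpc it lay between 12.6 and 22.4 (median 16.5) CPM and at 21.9, 30.5, 43.1, 43.9 and 57.2 CPM. In each genotype 4 of 5 injured libraries lay above all healthy ones, and Ntng1 rose by 1.20 ± 0.28 (SE; edgeR adjusted p = 0.00029) and 1.23 ± 0.26 (SE; edgeR adjusted p = 0.00011). Without injured mouse SLRKO2wpc130 the Lepr-ctrl change was 0.99, just under the threshold. At 4 wpc the changes were 0.50 ± 0.29 (SE; edgeR adjusted p = 0.135) and 0.93 ± 0.29 (SE; edgeR adjusted p = 0.00658), neither of them called. The last passed the fold threshold without the injured (1.16) or the healthy (1.02) nerve of mouse KO-177.

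Among 9 further perineurial genes the numbers called higher and lower at 2 wpc were 2 and 1 for Lepr-ctrl and 1 and 1 for Lepr-cKO, while at 4 wpc they were 6 and 1 for Lepr-ctrl and 3 and 1 for Lepr-cKO, with medians of 0.89, 0.86, 1.64 and 1.34. The gene that fell in each was Itgb4, an integrin subunit that Schwann cells also carry (-1.12 and -1.21 at 2 wpc, -1.89 and -1.25 at 4 wpc). Wnt10a, a Wnt ligand, rose in each, by 1.97 and 1.55 at 2 wpc. Its mean log2 CPM was at most 1 or its Lepr-ctrl groups at 2 wpc overlapped, and its CPM values are not given. Slc2a1 was between -0.21 and 0.21 and was not called.

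Of 9 other tight junction genes, 1 was called higher and 3 lower in Lepr-ctrl mice at 2 wpc. F11r, which encodes a junctional adhesion molecule, rose by 1.62 ± 0.30, while the claudin genes Cldn12 and Cldn19 were among those that fell (-1.19 and -1.18). Cldn19 is also a claudin of Schwann cells. The counts were 1 and 3, 3 and 3, and 1 and 2 in Lepr-cKO mice at 2 wpc, Lepr-ctrl mice at 4 wpc and Lepr-cKO mice at 4 wpc, and the medians of the 4 comparisons were -0.42, -0.03, -0.39 and 0.04. Of 4 genes of the netrin G family and its ligands, Ntng2 (netrin G2) rose by 2.43 ± 0.20 and the ligand gene Lrrc4c fell (-1.74 ± 0.24) in Lepr-ctrl mice at 2 wpc, and both were called in the same direction in the other 3 comparisons. At 4 wpc in Lepr-ctrl mice Lrrc4 and Lrrc4b fell as well (-1.57 and -2.17).

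The 17 mice with both nerves allow each injured nerve to be set against its own healthy side. Pdgfra was lower in the injured nerve of 17 of 17 mice and Wif1 higher in 17 of 17. Pi16 and Sox9 were higher in 16, Cldn1 and Ntng1 in 15, Dpt in 12 and Osr2 in 10. Dcn was higher in 9 and lower in 8, and Lum higher in 8 and lower in 9. Split by time, Dcn was higher in 1 of 4 Lepr-ctrl and 1 of 5 Lepr-cKO mice at 2 wpc and in 3 of 4 and 4 of 4 at 4 wpc, and Osr2 was higher in 2 of 4 and 0 of 5 at 2 wpc and in 4 of 4 and 4 of 4 at 4 wpc.

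**Figure D4:**
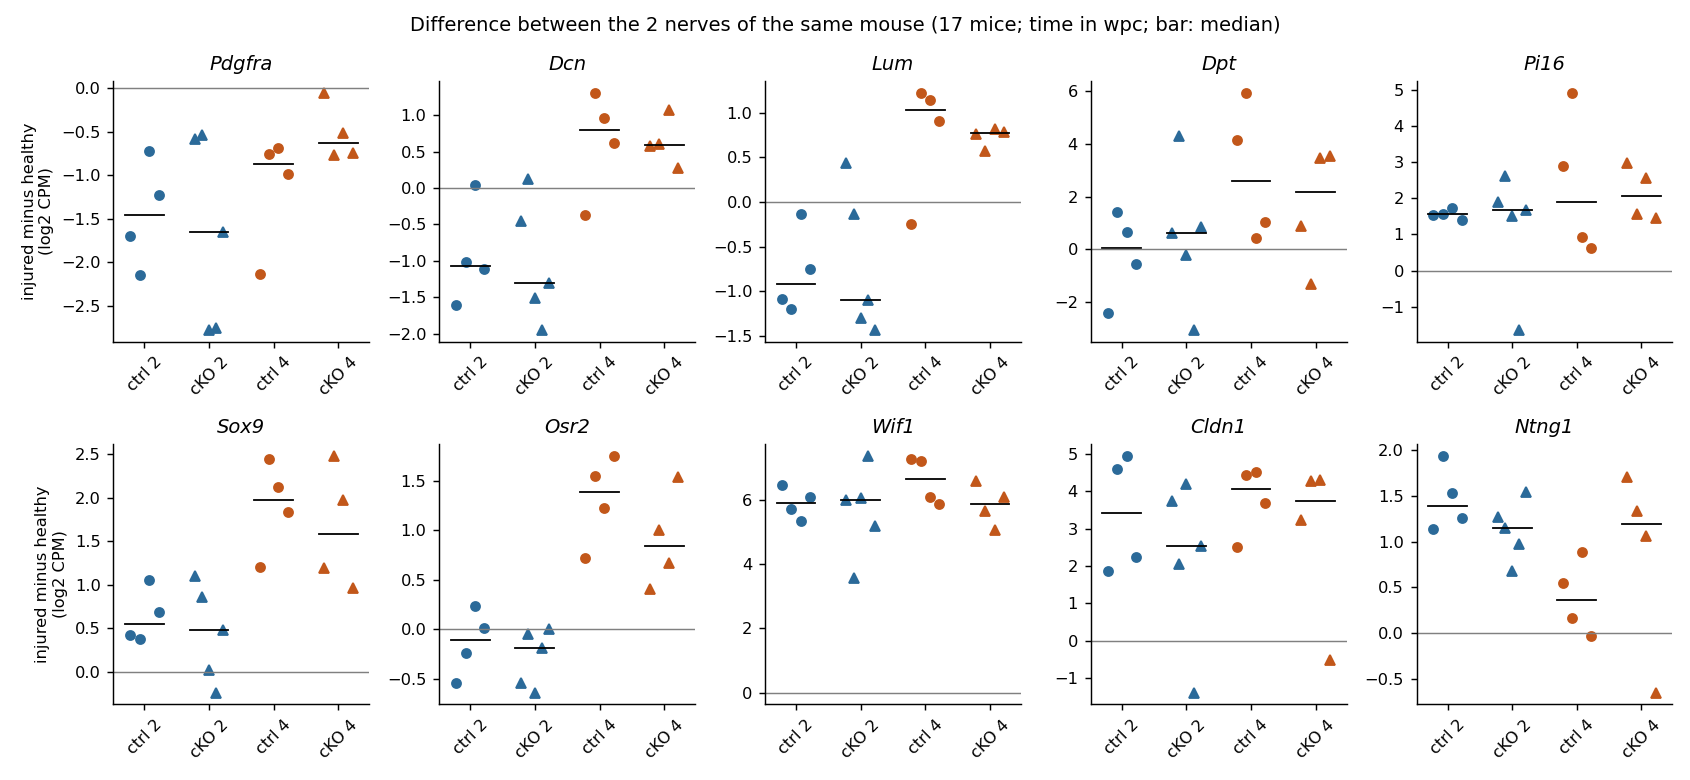
Difference in log2 CPM between the injured and the healthy nerve of the same mouse (vertical axis) for the 10 marker genes in 17 mice, by genotype and time, with a bar at each median. Pdgfra lies below 0 and Wif1 above 0 in all 17 mice, while the differences of Dcn, Lum and Osr2 lie mostly below 0 at 2 wpc and mostly above 0 at 4 wpc.

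The next comparison asked whether the response to injury differed between 2 and 4 wpc. It sets different cohorts of mice against each other, so that time and cohort cannot be told apart. In Lepr-ctrl mice 5 of the 10 genes responded more positively at 4 wpc, where 4.42% of all genes were called. The differences were 1.70 ± 0.45 (SE; edgeR adjusted p = 0.015) for Dcn, 1.53 ± 0.45 (SE; edgeR adjusted p = 0.0279) for Lum, 4.01 ± 1.28 (SE; edgeR adjusted p = 0.0434) for Dpt, 1.33 ± 0.36 (SE; edgeR adjusted p = 0.0148) for Sox9 and 1.51 ± 0.31 (SE; edgeR adjusted p = 0.00221) for Osr2. For Dcn, Lum and Sox9 the injured nerves were higher at 4 than at 2 wpc (0.94, 0.76 and 0.68), none of them called. The healthy nerves were lower for the same genes (-0.75, -0.77 and -0.66), again none called, and both parts enter the difference. With the animal as a block Dpt was 2.98 (edgeR adjusted p = 0.238) and was lost. Dpt was also lost in 14 of the 19 fits that left out 1 library, with 2.62 without injured mouse WT-171, and Lum in 5 of them (1.38 to 1.46).

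In Lepr-cKO mice 1 of the 10 genes was called in this comparison, Osr2 at 1.28 ± 0.31 (SE; edgeR adjusted p = 0.0182), against 1.42% of all genes. Without injured mouse KO-177 it was 0.95 and was no longer called. The other values were 1.46 ± 0.45 (SE; edgeR adjusted p = 0.0782) for Dcn, 1.36 ± 0.44 (SE; edgeR adjusted p = 0.104) for Lum, 1.07 ± 1.20 (SE; edgeR adjusted p = 0.761) for Dpt and 0.97 ± 0.35 (SE; edgeR adjusted p = 0.151) for Sox9. With the animal as a block Dcn (1.65, adjusted p = 0.0475) and Lum (1.44, adjusted p = 0.0477) were called too, as were Lum without injured mouse SLRKO2wpc125 (1.67) and Dcn without injured mouse SLRKO2wpc126 (1.73).

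The times were also compared within each nerve. In injured Lepr-ctrl nerves 3 genes were higher at 4 than at 2 wpc, Dpt by 3.64 ± 0.95 (SE; edgeR adjusted p = 0.00566), Pi16 by 1.68 ± 0.54 (SE; edgeR adjusted p = 0.0241) and Osr2 by 1.08 ± 0.23 (SE; edgeR adjusted p = 0.00079), where 7.33% of all genes were called. The first 2 rested on mouse WT-171, without which Dpt was 2.25 (adjusted p = 0.0962) and Pi16 was 0.37 (adjusted p = 0.681). Pi16 was also lost without injured mouse SLRKO2wpc123 (1.61), and Osr2 without injured mouse WT-178 (0.99) or SLRKO2wpc130 (0.97). Without injured mouse SLRKO2wpc131, Dcn (1.31) and Lum (1.08) were called, and without injured mouse WT-170 Dcn (1.08) was.

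In injured Lepr-cKO nerves none of the 10 genes was called between 2 and 4 wpc by edgeR or DESeq2, 3 had an unadjusted p under 0.05 (Dcn 0.87 ± 0.33, Sox9 0.66 ± 0.26 and Osr2 0.62 ± 0.23), and 5.29% of all genes were called. Over all genes 5384 of 18442 had an unadjusted p under 0.05 there, so that 3 of 10 is near the background. Without injured mouse SLRKO2wpc126 Dcn was called (1.13), while Sox9 was 0.38 without injured mouse KO-175 and Osr2 was 0.28 without injured mouse KO-177. Among healthy nerves none was called by edgeR in Lepr-ctrl mice, where 0.174% of all genes were, or in Lepr-cKO mice, where 0.119% were. Unadjusted p was under 0.05 for 4 genes in the former (Dcn -0.75 ± 0.31, Lum -0.77 ± 0.31, Sox9 -0.66 ± 0.25 and Cldn1 -2.94 ± 0.84) and for 2 in the latter (Lum -0.81 ± 0.30 and Osr2 -0.66 ± 0.21), as it was for 2968 and 1829 of all 18442 genes. Cldn1 in healthy Lepr-ctrl nerves missed the threshold (edgeR adjusted p = 0.0589) and was the 1 gene called by DESeq2 (-2.92), and edgeR called it without healthy mouse SLRKO2wpc147 (-2.98). Without healthy mouse SLRKO2wpc120 it was -1.93 (adjusted p = 0.295).

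Lepr-cKO and Lepr-ctrl mice were then compared within each nerve and time. None of the 10 genes was called by edgeR or by DESeq2. Over all genes 0.569% were called in injured nerves at 2 wpc, 0.45% in injured nerves at 4 wpc and 0.00542% in healthy nerves at each time. The first 2 shares are 105 and 83 genes, and with 1 library left out they ran from 1 to 210 and from 6 to 702 genes. The unadjusted p was under 0.05 for 1, 3, 0 and 2 of the 10 genes and for 1187, 3667, 222 and 346 of all 18442 genes (injured nerves at 2 and 4 wpc, then healthy nerves). Dpt in injured nerves at 2 wpc was 2.16 ± 0.88 higher in Lepr-cKO mice (SE; edgeR adjusted p = 0.583, 95% interval 0.44 to 3.88). It was 1.38 without injured mouse SLRKO2wpc126. In the same comparison all 8 adipocyte genes had fitted differences above 0 (median 1.92, none called) and 7 of 7 skeletal muscle genes were called higher, and their part in the Dpt value was not tested. At 4 wpc Osr2 was at -0.66 ± 0.24 (interval -1.13 to -0.19), Wif1 at -1.0 ± 0.43 (-1.84 to -0.16) and Ntng1 at 0.78 ± 0.31 (0.17 to 1.38), with edgeR adjusted p of 0.117, 0.186 and 0.151. With 1 library left out Ntng1 ran from 0.43 without injured mouse KO-169 (adjusted p = 0.55) to 1.00 without injured mouse KO-177 (adjusted p = 0.0247), where it was called. Cldn1 in healthy nerves at 4 wpc was 2.54 ± 0.83 (interval 0.91 to 4.17, adjusted p = 1), with 22.4 ± 18.2 CPM (SD, n = 5) in Lepr-cKO and 3.86 ± 1.25 CPM (SD, n = 5) in Lepr-ctrl mice and no overlap between them. Krt19, Msln and Lypd2, perineurial genes whose spread went with that of Cldn1, stood higher in the same Lepr-cKO nerves without being called. Their means were 4.65 against 0.201 CPM, 6.00 against 0.416 CPM and 3.14 against 0.153 CPM. Slc2a1 was at 220 against 213 CPM and Ntng1 at 21.2 against 16.7 CPM. Values of the other listed perineurial genes in these groups are not given. Of the 8 adipocyte genes 7 had fitted differences above 0 (median 5.49, none called), and the part of these cells in the Cldn1 value was not tested. Osr2 in healthy nerves at 4 wpc was at -0.46 ± 0.22 (interval -0.88 to -0.04, adjusted p = 1).

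The response to injury did not differ between genotypes past the threshold for any of the 10 genes at 2 or at 4 wpc, and 0% of all genes were called in either comparison by edgeR (796 and 2013 genes had an unadjusted p under 0.05, and DESeq2 called 2 and 3). None of the 10 had an unadjusted p under 0.05 there, and DESeq2 called none of them. At 2 wpc the differences ran from -1.29 ± 0.74 for Wif1 (interval -2.74 to 0.15) to 1.45 ± 1.19 for Dpt (interval -0.88 to 3.78). At 4 wpc they ran from -1.49 ± 1.28 for Dpt (interval -4.01 to 1.02) to 0.76 ± 0.59 for Pdgfra. These intervals reach past 1 log2 unit for several of the genes.

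Levels per kilobase of exon place the genes against each other. In healthy Lepr-ctrl nerves at 2 wpc Dcn had 388 CPM per kilobase and Lum 199, followed by Pdgfra (11.9), Osr2 (9.29), Cldn1 (6.09), Sox9 (4.82), Ntng1 (2.00), Dpt (1.15), Pi16 (0.229) and Wif1 (0.0335). In injured Lepr-ctrl nerves at 4 wpc Wif1 was at 7.48 ± 2.63 CPM per kilobase (SD, n = 4) and Pdgfra at 3.99 ± 0.65 (SD, n = 4). Dpt had a mean of 14.8 ± 19.1 CPM per kilobase (SD, n = 4), from libraries that ran from 2.63 to 72.4 CPM. When the 8 groups were ordered by mean level, neighbours in that order overlapped in range for all 7 pairs of 8 of the genes. The exceptions were Wif1, with a gap between the healthy groups (means of 0.205 CPM at most) and the injured groups (9.10 CPM at least), and Cldn1, with a gap between healthy Lepr-ctrl nerves at 4 wpc (3.86 CPM) and the next group (22.4 CPM). The share of all genes tested that have such a gap was not counted, so these gaps are a description only.

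The 10 genes did not vary as 1 set. Over the 45 pairs the correlation of deviations from group means across the 39 libraries ran from -0.32 to 0.86 (median 0.27), and 10 pairs were above 0.5. These values describe libraries that share depth and dissection, and for 17 mice the animal. The 3 general fibroblast genes were the most alike, with r = 0.86 for Pdgfra and Dcn, 0.85 for Dcn and Lum and 0.84 for Pdgfra and Lum. Within the other roles r was 0.73 for Dpt and Pi16 and 0.61 for Cldn1 and Ntng1, but 0.40 for Sox9 and Osr2, -0.16 for Sox9 and Wif1 and -0.07 for Osr2 and Wif1. Sox9 was nearer to Dcn (0.75) and to Cldn1 (0.66) than to its fellow endoneurial markers.

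**Figure D5:**
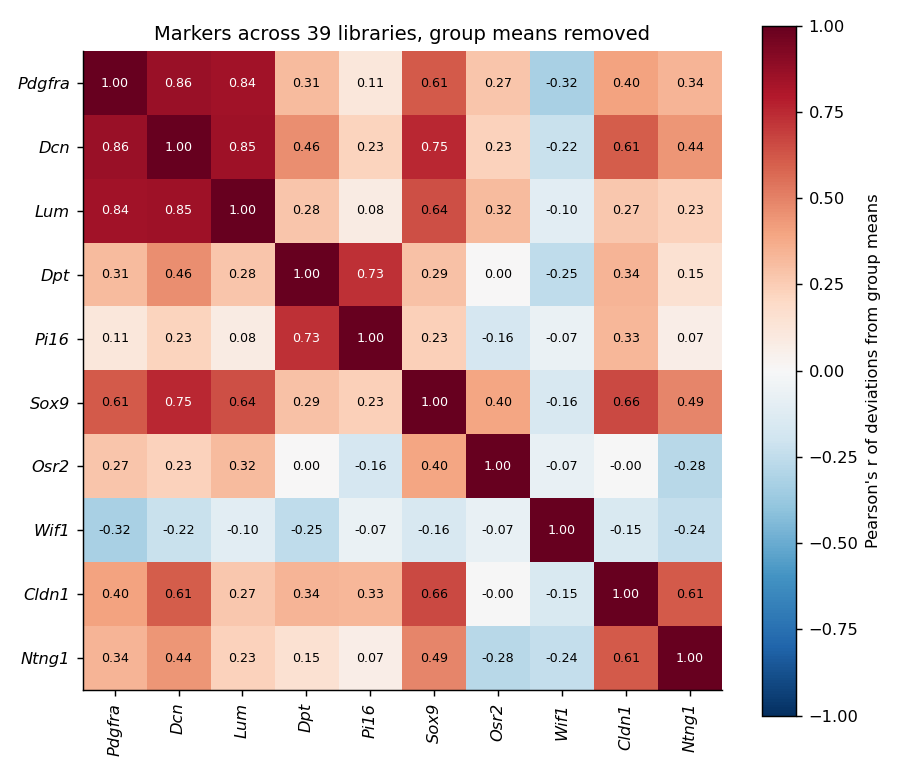
Pearson correlation between the 10 marker genes of their deviations from the group means over 39 libraries (color scale). The block of Pdgfra, Dcn and Lum reaches 0.84 to 0.86, and the row of Wif1 lies between -0.32 and -0.07.

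Across all 39 libraries and without removing group means, the genes most like each marker among 12785 genes with a mean log2 CPM above 1 were as follows. Pdgfra was closest to Podn (r = 0.95) and Sulf1 (0.92), Dcn to Serpinf1 (0.90) and Cpxm2 (0.90) and Lum to Serpinf1 (0.88) and Cyp1b1 (0.88). Dpt was closest to Inmt (0.80) and Ces1d (0.78) and Pi16 to Lpl (0.84), the lipoprotein lipase gene, and Gpx3 (0.83). Sox9 was closest to Ctsk (0.93) and Rnase4 (0.91), Osr2 to Copz2 (0.82) and Apod (0.79) and Wif1 to Trem2 (0.98) and Cd22 (0.98), which are expressed by macrophages and microglia. Cldn1 was closest to Cxadr (0.98), a tight junction receptor gene, and Moxd1 (0.97), and Ntng1 to Cnksr2 (0.91) and Cadm1 (0.90). For genes that differ between injured and healthy nerves these correlations contain the difference between the groups.

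Genes of other cell types moved between injured and healthy nerves as well. Of 8 macrophage genes 5 were called higher at 2 wpc in each genotype and 8 (Lepr-ctrl) and 7 (Lepr-cKO) at 4 wpc, and none lower. Of 8 Schwann cell genes 4, 5, 5 and 3 were called lower in the 4 comparisons (Lepr-ctrl then Lepr-cKO nerves at 2 wpc, followed by the same at 4 wpc) and 1, 1, 0 and 1 higher. All 5 cell cycle genes were called higher at 2 wpc in both genotypes, and 2 (Lepr-ctrl) and 5 (Lepr-cKO) at 4 wpc. Of 6 endothelial genes 2, 4, 3 and 1 were called higher and none lower. Of 7 skeletal muscle genes 0, 7, 1 and 0 were called higher, the 7 in the comparison that holds the injured nerve of mouse SLRKO2wpc126. The part of these other cells in the values of the 10 markers was not tested.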

How the data were processed

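RNA-seq of endoneurial RNA from 39 sciatic nerves of 22 mice was analysed. Per the labels and the study's methods, libraries were made with a TruSeq kit, demultiplexed with bcl2fastq 2.20.0.422, aligned with STAR 2.5 to GRCm38 and counted per gene with featureCounts 1.5.0-p1, and the authors deposited 1 table of raw read counts per nerve. The strand and multimapping settings of the counting were not given in the sources used here. Genes that overlap a member on the opposite strand had at most 4 counts.

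Counts were scaled by TMM factors and tested with edgeR 4.0.16 (quasi-likelihood F test, R 4.3.3, limma 3.58.1) in 1 fit of all 39 libraries with 8 group means, over the 18442 of 55573 genes that passed filterByExpr (minimum count 10, minimum total 15). Calls needed both an adjusted p (Benjamini-Hochberg) below 0.05 and a log2 fold change beyond 1 in size. Log2 CPM used a prior count of 2. Standard errors are the fold change over the root of F. The scripts were tested on simulated counts. Members and lists were chosen with earlier results of these data known.

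Named genes were the 10 members, Lepr, up to 3 genes of each list with the largest called change in Lepr-ctrl mice at 2 wpc whose groups did not overlap and whose mean log2 CPM was above 1, every gene of a list with fewer than 4 called, and the 2 genes most like each member. Dkk2, Axin2, Pcolce2, Dpp4 and Cldn19 were named outside this rule after their values were seen, and 1 gene that it names is not reported here. The lists were general, endoneurial, epineurial and perineurial genes, small leucine-rich proteoglycans, the PDGF family, Wnt antagonists and targets, Sox and Osr factors, tight junctions, the netrin G family, and Schwann cell, macrophage, endothelial, pericyte, muscle, adipocyte and cell cycle genes. Tcf21, Kera, Dkk1 and Myh2 did not pass the filter.

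Alternatives were DESeq2 1.42.0, DESeq2 size factors, mitochondrial genes left out, other filters, the compared groups alone, a term for sex, the adjusted p alone, each library left out, the animal as a block and, chosen after seeing the data, libraries with Adipoq under 1 CPM. The block has 17 mice with both nerves, whose 2 libraries come from the same animal by the number in the labels. Deviations of the 2 nerves correlated at -0.12 to 0.57 (median 0.33, over 5000 genes), above 0.1 in 14 of 17 mice.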

Additional observations from a re-analysis of the deposited data

Results flagged for a closer look

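In 80 groups of libraries (10 genes in 8 groups) a single library was tested for a large gap to the rest (Dixon's test), which chance passes in about 1 of 20 groups, or 4 here. It was passed by 2. Dcn stood at 2554 CPM in the healthy nerve of Lepr-cKO mouse SLRKO2wpc138 at 2 wpc, above the other 5 nerves of its group. Cldn1 stood at 32.4 CPM in the injured nerve of Lepr-cKO mouse KO-177 at 4 wpc, below the other 3. That library also had the highest Dpt of its group (35.4 CPM) and an Adipoq level of 29.3 CPM. Their part in these values was not tested.

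The response to injury differed between 2 and 4 wpc by its own test for 5 of the 10 genes in Lepr-ctrl mice, against 4.42% of all genes. The differences in log2 fold change were 1.70 for Dcn, 1.53 for Lum, 4.01 for Dpt, 1.33 for Sox9 and 1.51 for Osr2 (edgeR adjusted p = 0.015, 0.0279, 0.0434, 0.0148 and 0.0022). For Dcn, Lum and Sox9 the healthy nerves were also lower at 4 than at 2 wpc (-0.75, -0.77 and -0.66, none called). Dpt was lost with the animal as a block (2.98, edgeR adjusted p = 0.238) and in 14 of the 19 fits that left out 1 library, and Lum in 5 of them. In Lepr-cKO mice it differed for Osr2, by 1.28 (edgeR adjusted p = 0.0182). Whether these differences themselves differ between the genotypes was not tested, and time and cohort cannot be told apart.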

How the results depend on the processing

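Apart from the fits that leave out 1 library, 630 log2 fold changes kept their direction and their side of the threshold, 21 lost the call, 11 gained it and 8 turned. With 1 library left out the numbers were 745, 37, 14 and 4. The cause of these changes was not tested, except where fewer libraries or genes entered the fit.

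Of the 10 genes, 4 in place of 7 (Lepr-ctrl) and 3 in place of 6 (Lepr-cKO) were called between injured and healthy nerves at 4 wpc when libraries with at least 1 CPM of Adipoq were left out, and over all genes 6571 in place of 6629 and 3886 in place of 5085. That leaves 1 healthy and 1 injured Lepr-cKO library at 4 wpc, so that every value of this setting with those groups rests on single libraries, which are assumed to vary like the other groups. In that setting 1 in place of 0 was called between 2 and 4 wpc in injured Lepr-cKO nerves (Sox9, 1.52) and 0 in place of 1 in the response to injury of Lepr-cKO mice. That response gave 2 with DESeq2, 0 with the compared groups alone and 3 with the animal as a replicate block. In Lepr-ctrl mice it gave 3 in place of 5 with the same 17 mice and no block. Between 2 and 4 wpc in healthy Lepr-ctrl nerves 1 in place of 0 (Cldn1) was called with DESeq2, with at least 10 counts in every library and with the compared groups alone. Block counts were 5, 6, 7 and 4 for injured against healthy nerves (Lepr-ctrl and Lepr-cKO at 2 wpc, then at 4 wpc), and the block changed no call other than those given with it in the report. Over the fits that leave out 1 library the counts ran from 1 to 5 (time, injured, Lepr-ctrl), 0 to 1 (time, injured, Lepr-cKO, and time, healthy, Lepr-ctrl), 0 to 1 (genotype, injured, 4 wpc), 3 to 5 (response, Lepr-ctrl) and 0 to 2 (response, Lepr-cKO).

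Dpt in Lepr-ctrl mice at 2 wpc turned from 0.04 to -0.17 with a term for sex, -0.0404 with the block, -1.74 without the Adipoq libraries and -0.39 to 0.29 with 1 library left out. Without the Adipoq libraries, Dcn, Lum and Dpt in Lepr-cKO mice at 4 wpc turned to -0.10, -0.0832 and -0.40, with 1 library on each side. In that setting Pi16 between 2 and 4 wpc in injured Lepr-ctrl nerves turned to -0.95, from 3 libraries at 2 wpc and 2 at 4 wpc. Dpt in the response of Lepr-cKO mice turned to -0.97, which uses the same single libraries at 4 wpc.

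Over all genes, 6289, 6330, 6629 and 5085 were called between injured and healthy nerves (Lepr-ctrl and Lepr-cKO at 2 wpc, then at 4 wpc). With at least 10 counts in every library, where Wif1 was not tested, 3413, 3313, 3763 and 2651 were, and by the adjusted p alone 11794, 12013, 11723 and 10208. Genotype counts in injured nerves were 105 and 83 at 2 and 4 wpc, 0 and 0 with the compared groups alone and from 1 to 210 and 6 to 702 with 1 library left out. Time counts with the compared groups alone were 779 in place of 1351 and 105 in place of 976 (injured Lepr-ctrl and Lepr-cKO) and 87 in place of 22 (healthy Lepr-cKO), and the response of Lepr-cKO mice gave 3 in place of 261 without the Adipoq libraries. At the depth of these libraries Wif1, Pi16 and Dpt rest on few counts in healthy nerves.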
